A study of Mus musculus with 44 samples.

Results

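Primordial germ cells are the founders of eggs and sperm, and 10 genes that mark or build them were followed here through lineage-traced mouse embryos. The 10 genes were Dppa3, Nanos3, Dnd1, Prdm1, Prdm14, Tfap2c, Dazl, Kit, Ifitm1 and Ifitm3. They were picked by gene symbol out of 32287 gene identifiers, each symbol matched 1 identifier, and all 10 are annotated as protein-coding. The rule that picks their rows uses the names alone.

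In the mouse, primordial germ cells arise from the posterior epiblast when BMP signals from the extraembryonic tissues induce the transcription factors Prdm1, Prdm14 and Tfap2c. The new germ cells shut off the somatic programme, regain pluripotency genes, switch on Dppa3 and then travel through the hindgut endoderm towards the future gonads. Nanos3 and Dnd1 are RNA-binding proteins that keep them alive on the way, Kit is the receptor for the survival signal Kitl, Ifitm1 and Ifitm3 are small membrane proteins found on early germ cells, and Dazl licenses their later entry into sexual differentiation. Several of the 10 have work outside the germ line too: Prdm1 acts in visceral endoderm and fetal intestine, Tfap2c in trophoblast and ectoderm, and Kit in many epithelia, blood and pigment cells.

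RNA was measured in 44 low-input libraries. By the study's methods, each E9.5 and E13.5 library came from a small number of sorted cells, and each E6.5 library from a dissected tissue. A few cells can therefore weigh heavily in a sorted library. Embryos were made by aggregating mCherry+ morulae, from host mice carrying a piggyBac EF1a transgene, with GFP+ mouse embryonic stem cells of the F1G4 background carrying EGFP under the CAG promoter at Rosa26, and both reporter lines went back to single picked cell clones. GFP+ cells were therefore embryonic and mCherry+ cells without GFP extraembryonic in origin. The embryonic gut libraries of E9.5 were sorted as GFP+ cells with a low mCherry signal. The study holds such cells to be embryonic, with remnants of dying extraembryonic cells taken up, and says that leftover extraembryonic transcripts can be present. By the study's methods GFP+ cells were male, while mCherry+ cells could be of either sex. Lineage and strain, and in part sex, cannot be told apart in any comparison between GFP+ and mCherry+ cells. At E6.5 the groups were the epiblast (Epi, GFP+), distal extraembryonic endoderm (exEndo 1) and proximal extraembryonic endoderm (exEndo 2), with 4 libraries each and 1 embryo per library. At E9.5 they were yolk sac endoderm (YsEndo) and the EPCAM-enriched midgut and hindgut of embryonic (emMidgut, emHindgut) and extraembryonic (exMidgut, exHindgut) origin, with 4 libraries each and 4 embryos pooled per library. At E13.5 they were small intestine and colon, with 3 libraries each: emSI and emColon were wild type, and exSI and exColon carried a Trp53 knockout restricted to the extraembryonic lineage, so that genotype and lineage cannot be told apart at this stage. The stages allow for the developmental delay that embryo transfer causes.

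Each value is in TPM, a share of all transcripts that is corrected for transcript length and lets genes be compared with each other. Coverage implied 3.53 to 12.04 Gb of aligned bases per library (median 6.80), and 10382 to 13596 genes exceeded 1 TPM. The labels were set against reporters and marker genes. EGFP lay at 180 to 880 TPM in the embryonic libraries and mCherry at no more than 6.61 TPM there. At least 7 of 8 gut endoderm markers exceeded 1 TPM in every gut library, and all 8 visceral and yolk sac endoderm markers did so in every YsEndo library. These counts do not set the groups apart, since every exEndo 1 library also had 7 of the former and 8 of the latter. The summed visceral and yolk sac markers were 48282 to 53671 TPM in YsEndo, and at most 14694 TPM in exMidgut, the next highest group. Trp53 transcripts were still present in the knockout libraries, at 33.4, 167 and 117 TPM in exSI and at 42.5, 124 and 122 TPM in exColon, against 158 to 201 TPM in emSI and 151 to 245 TPM in emColon.

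The germ cell label fitted the members unequally. Ifitm1 averaged at least 10 TPM in 10 of the 12 groups, Ifitm3 in 9, Prdm1 in 8 and Kit in 7, so these 4 were expressed in most groups of this epithelial and endodermal series. Dnd1 reached that level in 2 groups and Dppa3 in 1. Nanos3, Prdm14, Tfap2c and Dazl stayed under a mean of 10 TPM in all 12 groups. Of the 120 pairs of member and group, 68 had a mean of at least 1 TPM.

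**Figure D1:**
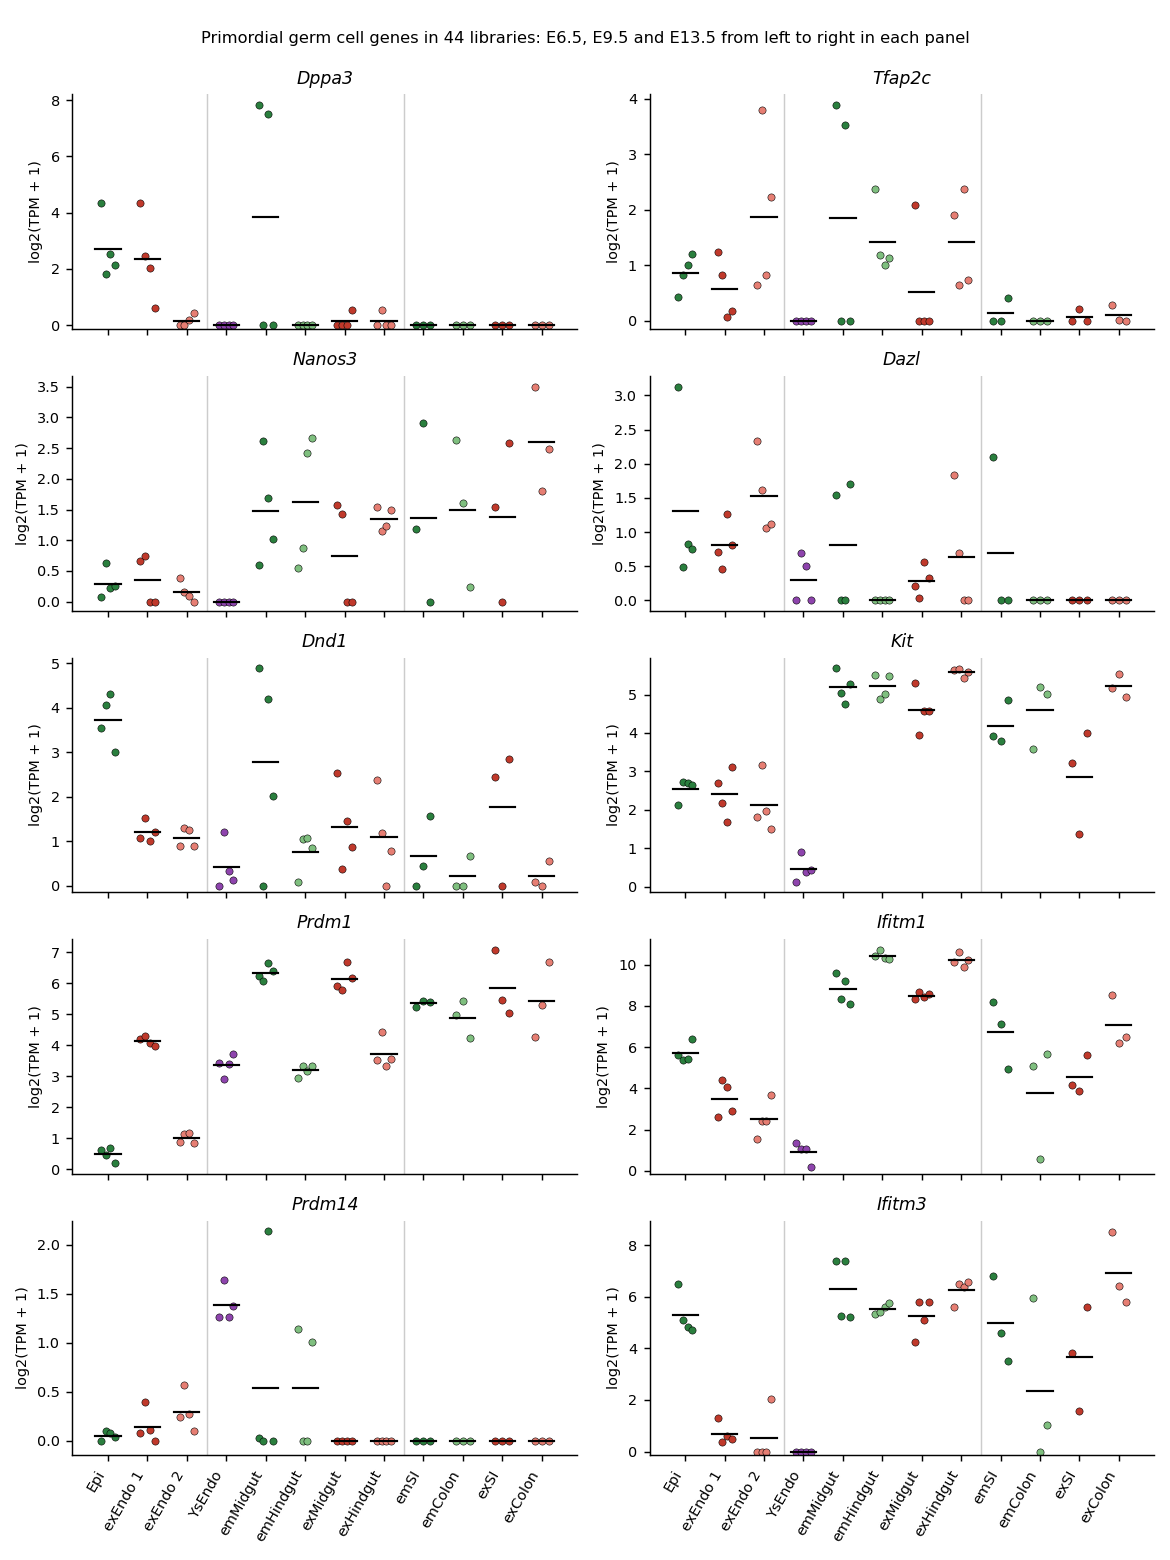
Levels of the 10 genes in all 44 libraries, as log2(TPM + 1) on the vertical axis, with a point per library, a black bar for the group mean, green for embryonic, red for extraembryonic gut or endoderm and violet for YsEndo. Kit, Ifitm1 and Ifitm3 were lowest in YsEndo, Prdm1 was high in both midgut groups, and Dppa3 reached 224 and 183 TPM in 2 emMidgut libraries while the other 2 were at 0.

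Prdm1 (chr10:44437177-44528501, minus strand, mm10), the transcriptional repressor that opens the germ cell programme, differed between regions of the endoderm at both E6.5 and E9.5. In Epi it was nearly absent, at 0.544, 0.388, 0.597 and 0.161 TPM. In exEndo 1 it lay at 17.3, 18.7, 15.7 and 14.7 TPM, and in exEndo 2 at 0.853, 1.21, 1.26 and 0.804 TPM. The distal endoderm thus stood above both other E6.5 groups without overlap. Prdm1 was higher in exEndo 1 than in Epi by 3.64 ± 0.168 (SE) on the log2(TPM + 1) scale (limma, adjusted p = 1.6e-08) and higher than in exEndo 2 by 3.12 ± 0.174 (adjusted p = 3.48e-06). It passed the filter on low values in both comparisons only through exEndo 1, so these p-values are no support.

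Prdm14 (chr1:13113457-13127163, minus strand) works beside Prdm1 in early germ cells and holds off DNA methylation and FGF signalling. It stayed under 0.5 TPM in all 12 E6.5 libraries and at 0 in all exMidgut, exHindgut and E13.5 libraries. The 4 YsEndo libraries held 1.40, 2.12, 1.40 and 1.60 TPM, and a mean of at least 1 TPM was reached in no other group. Single embryonic gut libraries were at 3.41 TPM (emMidgut replicate 3) and at 1.21 and 1.00 TPM (emHindgut replicates 1 and 4).

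Tfap2c (chr2:172549593-172558622, plus strand), the third factor of germ cell specification and also a trophoblast factor, varied widely within groups. In exEndo 2 it was 0.559, 12.9, 0.765 and 3.70 TPM. Elf5, a trophoblast gene, was 0.155, 7.02, 0.659 and 6.51 TPM in the same libraries, so both were high in replicates 2 and 4. Of the 8 extraembryonic ectoderm markers, 3, 7, 3 and 5 exceeded 1 TPM in exEndo 2 replicates 1 to 4 and 2 or 3 in exEndo 1. Their summed level was 21.2 to 50.5 TPM in exEndo 2 and 66.5 to 98.1 TPM in exEndo 1, and the part of such cells in the Tfap2c values was not tested. Tfap2a, Tfap2b, Tfap2d and Tfap2e, its 4 relatives, passed the filter on low values in none of the 14 comparisons.

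Dppa3 (chr6:122626410-122630272, plus strand), also called Stella, protects the maternal genome from demethylation and is the classic marker of committed germ cells. Epi libraries held 19.2, 2.56, 4.81 and 3.44 TPM and exEndo 1 libraries 19.4, 4.53, 3.10 and 0.519 TPM. Both groups thus reached the same upper level, exEndo 1 replicate 4 lay below every Epi library, and exEndo 2 stayed at or below 0.350 TPM. Pou5f1, the pluripotency factor, was 1694 TPM in Epi replicate 1 and 9.29 TPM in exEndo 1 replicate 1, the libraries with the highest Dppa3 of their groups, and EGFP was 332 and 1.09 TPM there.

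Of the RNA-binding members, Dnd1 (chromosome 18) was an epiblast gene at E6.5, with 10.7, 15.7, 18.9 and 6.998 TPM in Epi against 0.998 to 1.88 TPM in exEndo 1 and 0.849 to 1.45 TPM in exEndo 2. Nanos3 (chr8:84173731-84185217, minus strand) stayed under 0.7 TPM in every E6.5 library and at 0 in every YsEndo library. It ranged from 0 to 5.37 TPM in the E9.5 gut and from 0 to 10.3 TPM at E13.5. Within each stage its ranges overlapped between all gut groups. Dazl (chr17:50279395-50293636, minus strand) was highest in Epi replicate 1 (7.73 TPM; the other 3 at 0.407, 0.780 and 0.691 TPM) and in exEndo 2 (4.05, 2.07, 1.08 and 1.18 TPM), and lay at 0 in all emHindgut, emColon, exSI and exColon libraries.

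Kit (chr5:75574916-75656722, plus strand) was 1.81 to 7.99 TPM at E6.5 and between 14.5 and 50.4 TPM in the E9.5 gut. The stages differed in dissection, sorting and pooling and were not tested against each other. In YsEndo, the exception at E9.5, Kit was 0.077, 0.876, 0.297 and 0.342 TPM. Its ligand Kitl was 12.03 to 17.9 TPM in YsEndo and 25.9 to 148 TPM in the gut groups of E9.5. The 7 markers of other Kit-expressing cells (melanoblasts, interstitial cells of Cajal and mast cells) summed to 1.92 to 39.8 TPM in the E9.5 gut, and Cpa3 and Mcpt4, the mast cell genes, were at 0 in all 16 of these libraries.

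Ifitm1 (chr7:140967221-140969825, plus strand) and Ifitm3 (chr7:141009586-141010770, minus strand) lie in the same gene cluster and both had their highest group mean in a gut group and their lowest in YsEndo. Because both shared this order, the 200 bases that begin 250 bases before each start site, from RefSeq (GRCm38.p6), are shown 5′ to 3′ with CG dinucleotides in capitals. They lie at chr7:140967826-140968025 on the plus strand for Ifitm1, which is inside an intron of its longest annotated isoform, and at chr7:141010795-141010994 on the minus strand for Ifitm3, and contain no annotated exon.
Ifitm1: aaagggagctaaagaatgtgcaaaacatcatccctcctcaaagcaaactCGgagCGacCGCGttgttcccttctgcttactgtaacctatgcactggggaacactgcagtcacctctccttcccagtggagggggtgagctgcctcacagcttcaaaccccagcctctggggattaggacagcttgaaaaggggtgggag
Ifitm3: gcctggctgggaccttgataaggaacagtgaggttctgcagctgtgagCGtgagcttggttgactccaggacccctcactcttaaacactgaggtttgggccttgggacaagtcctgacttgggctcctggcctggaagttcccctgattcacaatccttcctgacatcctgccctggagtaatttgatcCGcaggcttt

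The Ifitm1 stretch holds 4 CG dinucleotides and the Ifitm3 stretch 2, against a median of 4 over 32851 RefSeq promoter stretches of the same length. In the same position Nanos3 has 3, Kit 11 at both of its listed starts, Prdm1 13 and Dazl 17. Dppa3, Dnd1, Prdm14 and Tfap2c have no entry there. A count of CG dinucleotides describes the letters of a window and was not tested against expression.

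At E6.5 the comparison of extraembryonic endoderm with Epi asked which members belonged to the pluripotent tissue from which germ cells will come. Of the 6 members that passed the filter (above 1 TPM in at least 4 libraries), 3 were lower in exEndo 1 than in Epi and 1, Prdm1, was higher, beside 13.6% of all 12057 genes tested that were lower and 19.8% that were higher. A call needed an adjusted p under 0.05 and a difference above 1 on the log2(TPM + 1) scale, and 33.4% of genes passed in either direction. Prdm1 passed the filter through exEndo 1 alone, and Dnd1 and Ifitm3 only through Epi, so these counts and the p-values of these members are no support. In exEndo 2, 4 of 7 members tested were lower than in Epi and none was higher, where 15.4% of 12046 genes were lower, 20.4% higher and 35.8% called in all. Dppa3, Dnd1 and Ifitm3 passed the filter there only through Epi, so this count and the p-values of these members are no support either.

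Ifitm1 was 48.1, 41.1, 42.5 and 81.7 TPM in Epi, 4.99, 20.0, 15.5 and 6.39 TPM in exEndo 1 and 1.92, 4.35, 4.34 and 11.7 TPM in exEndo 2. Epi thus stood above both endoderm groups, with differences of -2.23 ± 0.382 for exEndo 1 (limma adjusted p = 0.000369) and -3.19 ± 0.376 for exEndo 2 (1.36e-05). Ifitm3 was 89.0, 33.2, 27.1 and 24.9 TPM in Epi, at most 1.45 TPM in exEndo 1 and at 0 in exEndo 2 apart from 3.05 TPM in replicate 4. Its differences were larger, -4.58 ± 0.368 for exEndo 1 (limma adjusted p = 1.06e-06) and -4.77 ± 0.491 for exEndo 2 (4.34e-06).

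Dnd1 differed from Epi by -2.53 ± 0.270 in exEndo 1 (limma adjusted p = 1.03e-05) and by -2.65 ± 0.266 in exEndo 2 (3.46e-06). Dppa3 differed by -2.56 ± 0.433 in exEndo 2 (adjusted p = 0.000254), while its difference in exEndo 1 was -0.35 ± 0.717 (0.691). Kit differed from Epi by -0.13 ± 0.289 in exEndo 1 and by -0.44 ± 0.317 in exEndo 2, and neither passed. Tfap2c differed by 1.01 ± 0.559 in exEndo 2 (0.134), and was called without exEndo 2 replicate 1 (1.42, limma adjusted p = 0.0385). All values called here with no library left out had groups without overlap, as did 56.6% of genes tested for exEndo 1 and 59.4% for exEndo 2. Between exEndo 1 and exEndo 2, only Prdm1 of the 5 members tested was called, where 6.41% of 11414 genes were called and 19.6% had groups without overlap. Prdm1 passed the filter there through exEndo 1 alone.

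Of 13 pluripotency genes that germ cells express again, 10 were tested against Epi, with 7 lower in exEndo 1 (Pou5f1, Nanog, Sox2, Dppa5a, Utf1, Dppa4 and Alpl) and 2 higher (Zfp42 and Tfcp2l1). In exEndo 2, 5 were lower (Pou5f1, Nanog, Sox2, Utf1 and Alpl) and 3 higher (Zfp42, Tfcp2l1 and Dppa2). On the log2 scale the list's median difference from Epi was -2.49 for exEndo 1, beside 0.09 over all genes tested, and -1.77 for exEndo 2, beside 0.05. Among the 9 signals and receptors of germ cell specification, Bmp2, Smad1, Acvr1 and Wnt3 were higher in exEndo 1 than in Epi and T (Brachyury) was lower, of 8 tested. In exEndo 2 none of the 8 was higher than in Epi, and Wnt3, T and Eomes were lower. The later germ cell genes Ddx4, Rec8 and Tdrd5 were higher in both endoderm groups than in Epi, of 7 tested in each, while Boll was lower in both and Sycp3 in exEndo 1. Dnmt3a, Dnmt3b and Dnmt3l, the de novo methylation genes, and Tet1 were lower in both, and Tet2 was higher in both, of 11 partners and reprogramming genes tested. Sox2, Boll and Dnmt3l could not have passed the filter without Epi, so the medians and counts of these lists are no support.

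Replicate 1 held the highest Dppa3 value of its group in Epi and in exEndo 1, and the highest Dazl value in Epi and in exEndo 2. Dppa5a, a pluripotency gene, was 1524 TPM in Epi replicate 1 against 209 to 368 TPM in the other 3, and Rhox5, an extraembryonic X-linked gene, was 13.4 TPM there against 0.765 to 0.850 TPM. Over all genes above 1 TPM in any library of the group, replicate 1 was the highest for 19.8% in Epi, 24.3% in exEndo 1 and 34.6% in exEndo 2. T, which marks the start of gastrulation, was 1.05 TPM in Epi replicate 1 and 23.4, 24.1 and 53.5 TPM in the others, and the part of embryo age in these values was not tested.

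The E9.5 gut is the tissue through which germ cells migrate, and here Dppa3 divided a single group. The emMidgut libraries held 224, 0, 183 and 0 TPM, and the 4 emHindgut libraries 0. Only 2 of the 8 extraembryonic gut libraries were above 0, at 0.462 and 0.445 TPM. The deposited coverage of Dppa3 was 296 and 136 reads per base in emMidgut replicates 1 and 3, a figure that covers reads and not molecules, since the cDNA was amplified and carried no molecular tags. With only 2 libraries above 1 TPM, Dppa3 did not pass the filter. Without the filter the difference between emHindgut and emMidgut was -3.84 (limma adjusted p = 0.257), and the exact permutation test gave p = 0.429 for 4 against 4 libraries, where the smallest possible is 0.0286.

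In the same 2 libraries other germ cell genes were high. Dnd1 was 28.5, 0, 17.2 and 3.02 TPM in emMidgut replicates 1 to 4, and no more than 1.09 TPM in emHindgut. Tfap2c was 13.8, 0, 10.5 and 0 TPM in emMidgut and between 1.00 and 4.18 TPM in emHindgut. Ifitm3 was 166, 37.3, 165 and 35.7 TPM in emMidgut and 39.7 to 52.6 TPM in emHindgut, so replicates 1 and 3 exceeded all 6 other emGut libraries for all 4 genes. These 2 libraries were singled out by their Dppa3 values, so the order of Dppa3 itself was fixed in advance. With Dppa3 counted, 4 of the 10 members had this order, beside 5.60% of the 14814 genes above 1 TPM in any emGut library. Ifitm1 was also higher in replicates 1 and 3 than in the other midgut libraries (767, 319, 596 and 275 TPM), although still below every emHindgut library. Kit (50.4, 32.02, 25.8 and 37.4 TPM) and Prdm1 (74.4, 66.0, 101 and 83.2 TPM) did not follow this division. Nanos3 (0.506, 5.13, 2.21 and 1.02 TPM) was highest in a library without Dppa3.

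Of the 13 pluripotency genes, 9 had this order too, and Sox2, Zfp42, Tfcp2l1 and Alpl did not. All 13 exceeded 1 TPM in emMidgut replicate 1 and 11 did in replicate 3, against 4 in each of replicates 2 and 4, and 3 or 4 in the emHindgut libraries. Pou5f1 was 93.6, 0, 131 and 0 TPM in emMidgut replicates 1 to 4. Nanog, the naive pluripotency factor, was 15.8, 0, 9.75 and 0 TPM. Dppa5a was 103, 0, 324 and 0 TPM, Utf1 27.4, 0, 18.05 and 0.606 TPM, and Tcl1 8.08, 0, 17.8 and 0 TPM. Dppa4 was 5.18 and 8.77 TPM and Klf2 2.10 and 2.83 TPM in replicates 1 and 3, both at 0 in replicates 2 and 4. Esrrb (7.34 and 0.763 TPM) and Dppa2 (4.61 and 0.159 TPM) were above 1 TPM in replicate 1 alone of these libraries. Sox2, Zfp42, Tfcp2l1 and Alpl exceeded 1 TPM in all 4 emMidgut libraries. Tet1, which oxidises methylated DNA in early germ cells, was 57.4 and 64.6 TPM in replicates 1 and 3 and at most 36.5 TPM in the other 6 emGut libraries.

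Of the 13 later germ cell genes, 2 exceeded 1 TPM in replicate 1 and 5 in replicate 3. Ddx4 was 0.272 TPM in replicate 1 and 4.65 TPM in replicate 3, Nanos2 was 0 and 3.65 TPM and Tdrd9 0 and 1.55 TPM, while Rec8 and Tdrd5 exceeded 1 TPM in all 4 emMidgut libraries. Of the germ cell signals, Bmp4, Bmp2, Smad1, Smad5 and Acvr1 exceeded 1 TPM in all 4 emMidgut libraries, and T was 11.9, 3.55, 0 and 0 TPM. All 6 migration and survival partners (Kitl, Cxcr4, Cxcl12, Itgb1, Cdh1 and Bax) exceeded 1 TPM in every emGut library.

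Markers of other tissues were given beside these values, and their part in the germ cell values was not tested. The 8 gut endoderm markers summed to 1610.4, 1714.5, 1703.5 and 1727.7 TPM in emMidgut replicates 1 to 4. The 7 surface ectoderm markers summed to 6.06 and 8.46 TPM in replicates 1 and 3 and to 10.7 and 13.3 TPM in replicates 2 and 4. Mesenchyme markers summed to 12.7 and 4.91 TPM against 16.02 and 14.4 TPM, and blood markers to no more than 0.315 TPM in any. Endothelial markers summed to 5.64 and 3.43 TPM against 0.0245 and 0.0734 TPM, with Pecam1 the only marker above 1 TPM in both. EGFP was 701, 733, 880 and 834 TPM, mCherry 5.29 TPM in replicate 1 and 0 in the others, and Rhox5 18.6, 3.01, 24.1 and 0 TPM against at least 740 TPM in every extraembryonic gut library. The embryonic gut was sorted as GFP+ cells with a low mCherry signal, because the cells with GFP alone also included germ cells and surface ectoderm. The part of extraembryonic remnants in the Rhox5 values was not tested. In such bulk libraries, fewer cells of a type and less RNA per cell cannot be told apart.

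**Figure D2:**
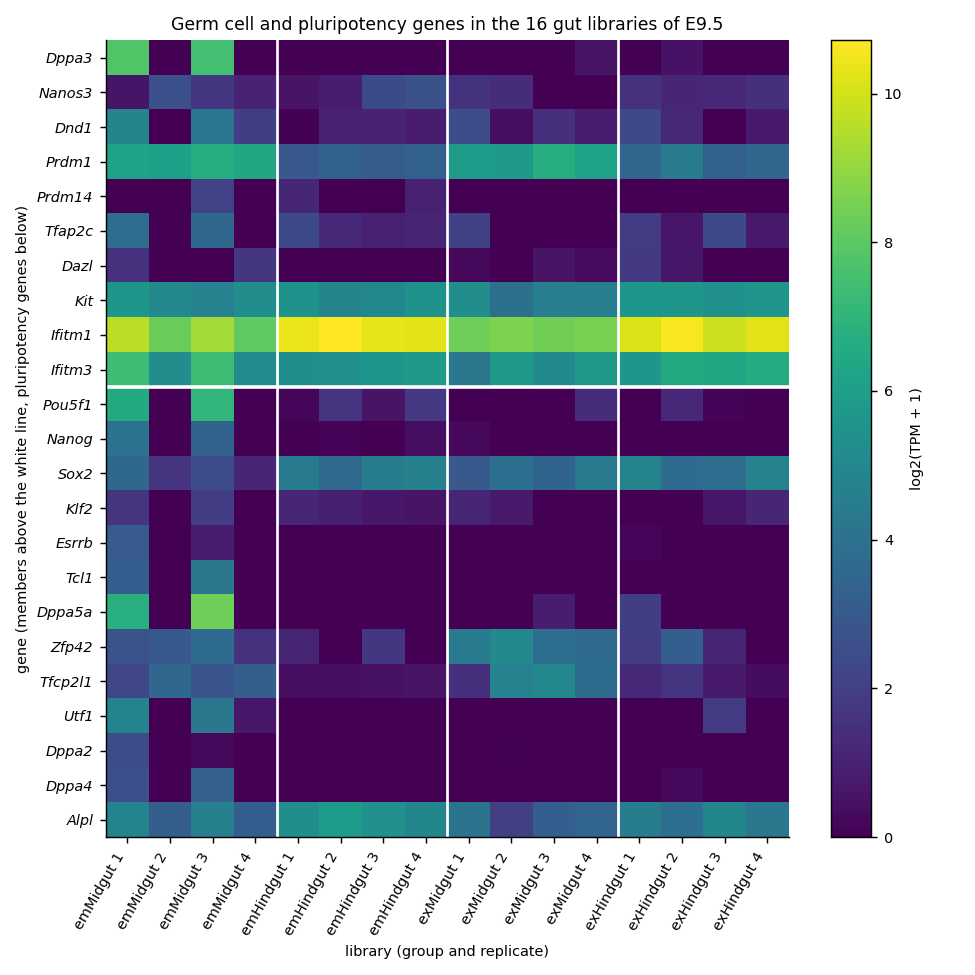
Levels, as log2(TPM + 1), of the 10 members (above the white line) and 13 pluripotency genes (below) in the 16 gut libraries of E9.5, with a column per library. Dppa3, Dnd1, Tfap2c, Pou5f1, Nanog, Dppa5a, Utf1 and Tcl1 were high in emMidgut 1 and 3, while Prdm1 was high in all 8 midgut libraries and Ifitm1 in all 16.

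Midgut and hindgut differed for Prdm1 and Ifitm1 in both lineages, in opposite directions. Prdm1 was 66.0 to 101 TPM in emMidgut and 54.5 to 101 TPM in exMidgut, against 6.61 to 9.12 TPM in emHindgut and 9.05 to 20.6 TPM in exHindgut. The difference of hindgut and midgut was -3.15 ± 0.205 in the embryonic lineage (limma adjusted p = 8.1e-08) and -2.42 ± 0.284 in the extraembryonic lineage (4.89e-05). Ifitm1 was 275 to 767 TPM in emMidgut and 327 to 404 TPM in exMidgut, against 1252 to 1679 TPM in emHindgut and 940 to 1560 TPM in exHindgut. It was higher in the hindgut by 1.62 ± 0.247 (adjusted p = 0.000219) and 1.71 ± 0.135 (1.44e-06). Neither range overlapped, as for 26.0% of genes tested in the embryonic and 21.2% in the extraembryonic lineage.

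These were the 2 calls among 7 members tested between emHindgut and emMidgut, where 13.9% of 12490 genes were called, 5.24% higher and 8.61% lower. Leaving out emMidgut replicates 1 and 3, an alternative chosen after seeing the data, left both calls in place, with differences of -3.04 for Prdm1 (limma adjusted p = 7.5e-06) and 2.21 for Ifitm1 (1.57e-07). Ifitm3 differed by -0.77 (0.207) and by 0.30 (0.34) with and without those libraries, and was called without emMidgut replicate 4 (-1.14, 0.0482). Dnd1 differed by -2.01 (0.0852), and by -2.93 (0.00317) without emMidgut replicate 2, its only midgut library at 0.

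Between exHindgut and exMidgut, 3 of 6 members tested were called, where 11.3% of 12331 genes were, 4.5% higher and 6.78% lower. Besides Prdm1 and Ifitm1 this was Ifitm3, at 48.1, 90.2, 82.1 and 95.4 TPM in exHindgut and 18.1, 54.9, 33.3 and 55.0 TPM in exMidgut. The ranges overlapped, the difference was 1.03 ± 0.323 (limma adjusted p = 0.04), and the call was lost without each of exMidgut replicates 1 and 3 and exHindgut replicates 2, 3 and 4 (adjusted p 0.0812 to 0.108). Kit was 42.2 to 49.9 TPM in exHindgut and 14.5 to 38.7 TPM in exMidgut, without overlap, and its difference of 0.98 ± 0.261 (adjusted p = 0.019) fell short of the fold required. It was called without exMidgut replicate 1 (1.21, 0.00327) and without exHindgut replicate 3 (1.03, 0.0339).

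Signals of germ cell specification differed between the regions too. Bmp4, Wnt3 and T were higher in the hindgut in both lineages and Acvr1 in the embryonic one, of 7 tested in each, and none was lower. T was 177 to 312 TPM in emHindgut and 141 to 286 TPM in exHindgut, and at most 11.9 TPM in any midgut library. Cdh1, a migration partner, was lower in the hindgut in both lineages. Of the pluripotency genes, Zfp42 and Tfcp2l1 were lower in the hindgut in both lineages, and Sox2 and Alpl were higher in emHindgut than in emMidgut. In the Ifitm family, Ifitm5 was higher in the hindgut in both lineages and Ifitm2 in the extraembryonic one. Of the interferon-stimulated genes, Bst2 was lower in the hindgut in both lineages, of 2 tested, and none was higher.

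No member was called between the lineages of the gut at E9.5. Of 7 members tested, none passed between exGut and emGut (2.35% of 13473 genes called), and the count at an unadjusted p under 0.05 was also 0, beside 16.5% of all genes. None of 6 passed in the midgut (2.58% called), none of 7 in the hindgut (3.07%), and none of 7 in the interaction of origin and region (0.0965%), by limma. At an unadjusted p under 0.05 there were 1, 1 and 2 members, beside 16.5%, 19.2% and 7.80% of all genes. The nearest was Ifitm3 in the hindgut, at 48.1 to 95.4 TPM in exHindgut and 39.7 to 52.6 TPM in emHindgut, with a difference of 0.74 ± 0.202 (adjusted p = 0.0454) below the required fold. In the midgut the same gene differed by -1.06 ± 0.494 (0.300), and by 0.01 (0.996) without emMidgut replicates 1 and 3. Ifitm2, the relative of Ifitm1 and Ifitm3, was lower in exMidgut (214 to 345 TPM) than in emMidgut (877 to 1166 TPM) and lower in exGut than in emGut overall. Rec8, a meiotic cohesin gene, was higher in extraembryonic gut in both regions, and Mov10l1, a piRNA pathway helicase, in the hindgut and overall.

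Against YsEndo, the extraembryonic tissue that stays outside the embryo, 6 of 7 members tested differed from exGut, 5 higher and 1 lower, where 42.4% of 12801 genes were called, 32.3% higher and 10.0% lower. The median of all genes lay 0.59 higher in exGut on the log2 scale, and the differences below stand against that shift. Ifitm1 was 1.54, 1.11, 1.07 and 0.143 TPM in YsEndo against 327 to 1560 TPM in exGut, a difference of 8.44 ± 0.435 (limma adjusted p = 1.22e-09). Ifitm3 was listed at 0 in all 4 YsEndo libraries and at 18.1 to 95.4 TPM in exGut (1.13e-08). Kit was higher in exGut by 4.64 ± 0.331 (3.42e-08). These 3 members and Prdm14, with a difference of -1.39 ± 0.231 (0.000124), had groups without overlap, as 43.5% of genes tested did. Prdm14 passed the filter only through YsEndo, and Kit, Ifitm1, Ifitm3 and Nanos3 only through exGut. Ifitm1 exceeded 1 TPM in 3 YsEndo libraries, fewer than the filter required. The count of calls and the p-values of these members are therefore no support.

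Prdm1 (1.56 ± 0.604, limma adjusted p = 0.0361) and Nanos3 (1.05 ± 0.361, 0.0209) were called with overlapping groups, and both calls were lost when single libraries were left out or values were rescaled. Leaving out any YsEndo library gave 3 calls, Kit, Ifitm1 and Ifitm3, with fewer genes able to pass the filter, as Prdm14 then had under 4 libraries above 1 TPM. Prdm1 also lost its call without each of the 4 exMidgut libraries, and Nanos3 without exMidgut replicates 1 and 2 and exHindgut replicates 1 and 4. The 2 regions differed here: YsEndo held 9.81, 6.57, 9.46 and 12.1 TPM of Prdm1, a range that overlapped exHindgut and lay wholly below exMidgut. Median-ratio rescaling gave 4 member calls, 3 higher and 1 lower, with the median of all genes at 0.157. Bmp4, Bmp2, Smad5 and T were higher in exGut, of 7 signals tested, as were Kitl, Cxcr4, Cxcl12 and Itgb1 of 6 partners. The interferon-stimulated genes Bst2 and Rsad2 were lower in exGut.

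**Figure D3:**
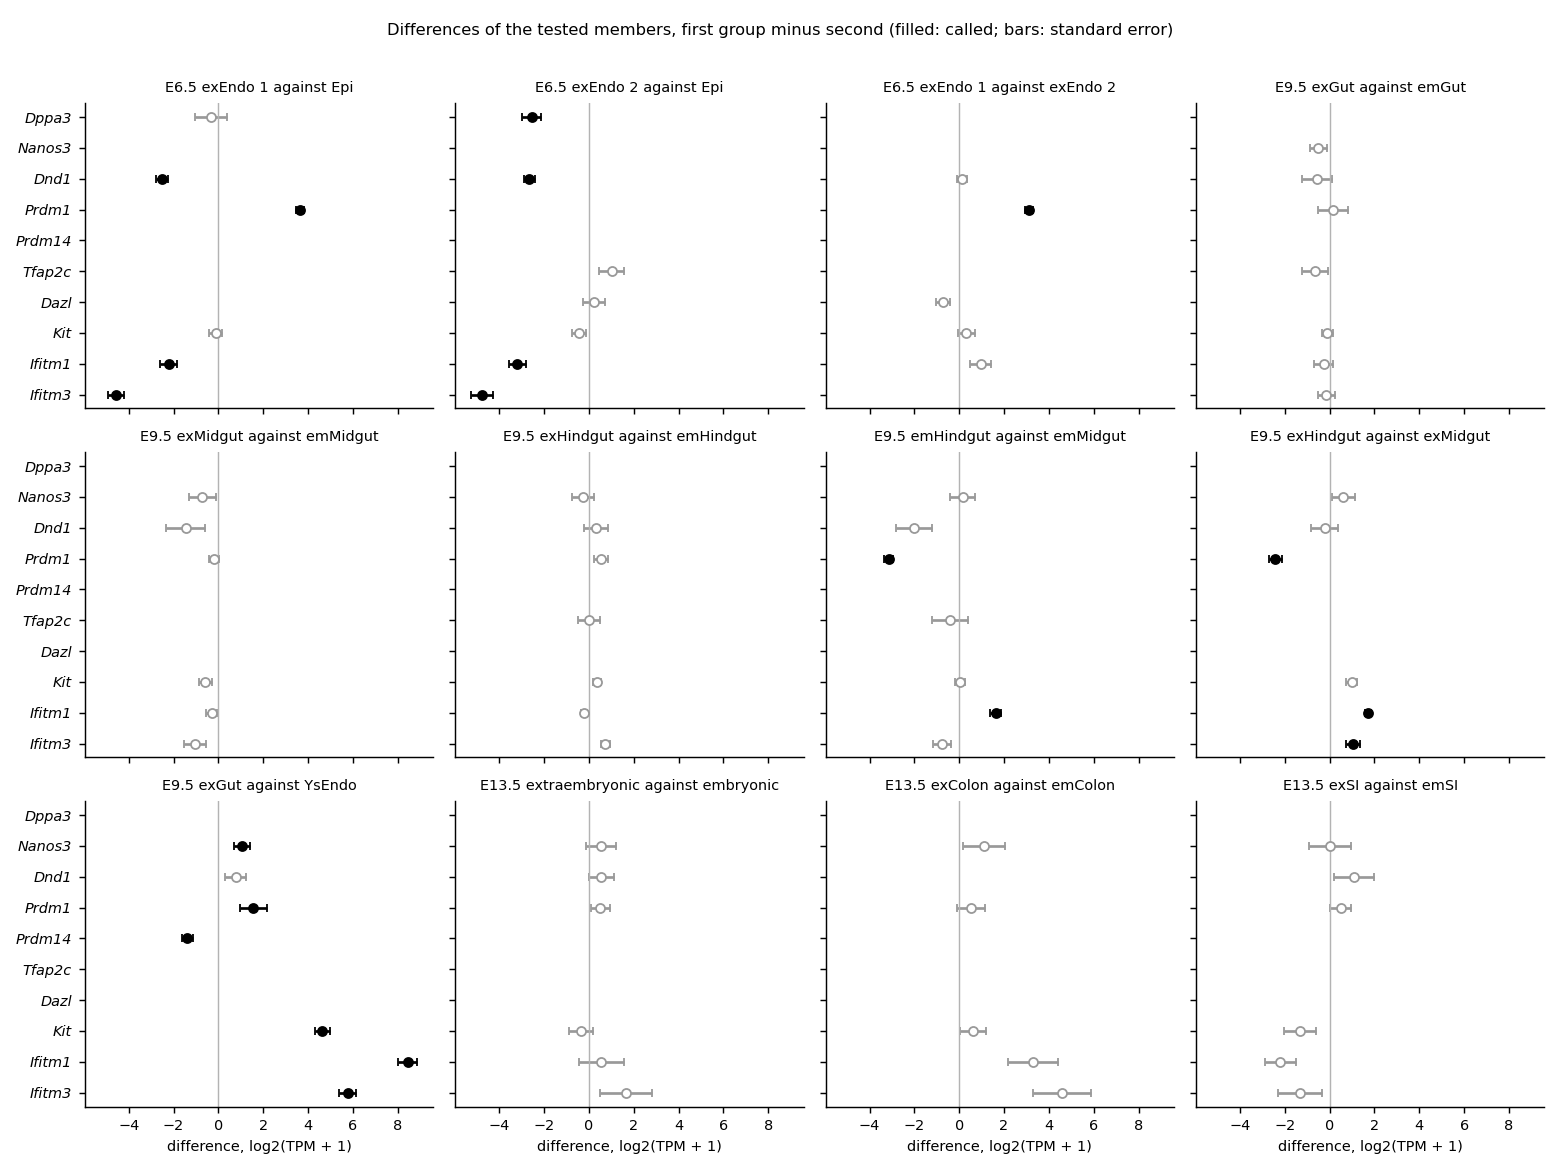
Differences between groups for the members tested in each of 12 comparisons, as the first-named group minus the second on the log2(TPM + 1) scale, with standard errors and filled points for calls. Prdm1 was the only member called between exEndo 1 and exEndo 2, no member was called between the lineages at E9.5 or E13.5, and Ifitm1 showed the largest difference, 8.44 against YsEndo.

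At E13.5, Dppa3 and Prdm14 were listed at 0 in all 12 libraries and Tfap2c stayed at or below 0.325 TPM. Prdm1 was present in every library, at 36.8, 42.2 and 41.4 TPM in emSI, 30.6, 42.2 and 17.99 TPM in emColon, 134, 42.7 and 31.7 TPM in exSI and 18.2, 38.5 and 103 TPM in exColon. Kit was 14.2, 12.7 and 27.8 TPM in emSI, 11.1, 36.0 and 31.1 TPM in emColon, 8.33, 1.58 and 14.9 TPM in exSI and 34.8, 45.2 and 29.7 TPM in exColon. For both genes the embryonic and extraembryonic ranges overlapped in each organ.

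No member was called by limma between extraembryonic and embryonic libraries at E13.5. This held for 6 tested over both organs (0.625% of 12483 genes called), 5 in the colon (0.269%), 6 in the small intestine (0.738%) and 6 in the interaction of origin and organ (0.016%). At an unadjusted p under 0.05 there were 0, 2, 1 and 2 members, beside 11.3%, 9.90%, 10.3% and 8.32% of all genes. With 3 libraries per group the smallest exact permutation p is 0.1. In simulated data for exColon against emColon, limma recovered 42 of 200 genes changed by 2 on the log2 scale. Changes of this size could therefore go uncalled.

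Ifitm1 was 286, 138 and 29.9 TPM in emSI and 16.7, 13.7 and 48.1 TPM in exSI. In the colon the order was the opposite, 33.1, 0.506 and 49.0 TPM in emColon and 368, 73.6 and 88.6 TPM in exColon. The differences were -2.20 ± 0.707 in the small intestine (limma adjusted p = 0.263), 3.30 ± 1.107 in the colon (0.358) and 5.50 ± 1.549 for the interaction (0.377). Ifitm3 was 110, 23.2 and 10.4 TPM in emSI, 13.1, 1.97 and 47.0 TPM in exSI, 60.9, 0 and 1.05 TPM in emColon and 368, 84.6 and 54.6 TPM in exColon, with an interaction of 5.90 ± 1.901 (0.442). Without emSI replicate 3 the Ifitm1 difference in the small intestine was called (-3.10, 0.0212), and without emColon replicate 1 the Ifitm3 difference in the colon was (6.40, 0.0151). Without emSI replicate 1 the former was -1.49 (0.623), and without emColon replicate 2 the latter was 3.42 (0.491) and that of Ifitm1 in the colon 1.71 (0.511).

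Marker lists were set beside the Ifitm values in these groups and followed them only in part, and their part was not tested. The 6 mesenchyme markers summed to 448, 93.4 and 1.75 TPM in emSI, in the same order as Ifitm1 and Ifitm3, with 4, 4 and 1 of them above 1 TPM, and to at most 1.05 TPM in exSI, where Col1a1, Prrx1 and Tcf21 were at 0. In the colon they summed to 6.20 to 11.7 TPM in emColon and 0.169 to 5.57 TPM in exColon, where Ifitm1 and Ifitm3 had the higher mean. The 7 surface ectoderm markers summed to 185, 40.8 and 15.9 TPM in exColon with 5, 3 and 3 above 1 TPM, in the order of Ifitm3. In emColon they summed to 2.32, 57.2 and 10.2 TPM, which is not its order there. Their sums were 0.916 to 9.46 TPM in emSI and at most 2.46 TPM in exSI.

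Genes whose pattern over the 44 libraries was most like that of a member were found by Pearson correlation of log2(TPM + 1) among 14689 genes, for the 6 members with a group mean of at least 10 TPM. Dppa3 was followed most closely by Epp13 (r = 0.858), Pla2g10 (0.746) and Morc1 (0.733), and Dnd1 by Epp13 (0.793), Myh6 (0.780) and Nanog (0.761). For Prdm1 they were Foxa1 (0.894) and Pdzk1ip1 (0.880), and for Kit Pard6g (0.920), Pafah1b3 (0.919) and Igdcc3 (0.914). For Ifitm1 they were Ptk7 (0.930), Cacna2d1 (0.923) and Hdac11 (0.914), and for Ifitm3 Fgd2 (0.915), Tmem131l (0.881) and Tox3 (0.875). The libraries share stage and tissue, so such values describe these samples alone.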

How the data were processed

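Libraries were low-input poly(A) RNA-seq without strand information. Per the submitters' notes and the study's methods, adapters were removed with cutadapt 4.1, STAR 2.7.9a mapped the reads to mm10 extended by both reporter sequences, and StringTie 2.0.6 quantified GENCODE VM23 genes. The deposited TPM and FPKM values are normalized by the authors for length and library total, and the deposited coverage signal gives reads per base. Counts were not used, and only the replicates show how precise a value is.

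TPM was summed per gene identifier; 32235 of 32287 identifiers matched GENCODE vM21, an earlier release. Protein-coding genes not on Y with more than 1 TPM in 4 or more libraries (3 for E13.5) were tested with limma 3.58.1 (R 4.3.3, eBayes with trend, two-sided, Benjamini-Hochberg over all genes tested) on log2(TPM + 1), which understates changes of low genes. Only the groups compared entered a fit, and 14 comparisons were made. A value after ± is a standard error (SE). Where nothing says that libraries are independent embryos, p-values measure the spread between these libraries. The scripts were tested on simulated data in which 200 genes changed by 2 on the log2 scale. Of these, 196 were recovered in exEndo 1 against Epi, 193 in exEndo 2 against Epi and 172 in exMidgut against emMidgut. Only 42 were recovered in exColon against emColon.

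Same-numbered exEndo 1 and exEndo 2 libraries deviated together (correlations 0.167 to 0.402 over genes, each highest with its own number) and were treated as pairs in an alternative fit. Against Epi, no exEndo 1 library was most like its own number. At E9.5 and E13.5 the same-number correlations were weak, at 0.08 or less. Even so, in the E13.5 colon and small intestine each of 3 was highest with its own number, and in the E9.5 midgut and hindgut 3 of 4 were. Whether equal numbers stand for the same embryos is not stated in the labels.

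Genes sharing sequence were checked in windows of 50 bases of the annotated transcripts: 16.5% of Dppa3, 4.00% of Dnd1, 5.02% of Ifitm1 and 10.0% of Ifitm3 windows occur in other genes, among them the pseudogene Dppa3-ps, Wdr55, Gm7676 and Ifitm2, and none for the other 6 members. The share of windows does not bound the error in TPM, which also depends on the level of the other gene. Ifitm2, for example, was 877 to 1166 TPM in emMidgut, where Ifitm3 was 35.7 to 166 TPM. The part of shared reads in the values of these 4 members was not tested.

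The members and gene lists were chosen with earlier results of these data known. All 10 members are named, the 3 most similar genes of each member with a group mean of at least 10 TPM, and listed genes where called or above 1 TPM in an emGut library with Dppa3; some genes that met this rule are not reported here. Alternatives were a pseudocount of 0.1, no filter, quantile normalization, median-ratio rescaling, FPKM, no trend, all libraries in a single fit, a replicate block, a region covariate and leaving out each library. Figures used matplotlib.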

Additional observations from a re-analysis of the deposited data

Results flagged for a closer look

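In groups of 4 libraries, Dixon's ratio was taken on log2(TPM + 1). It divides the gap between the highest or lowest value and its neighbour by the range of the group. Of 59 groups of a member with a library of at least 1 TPM, 6 had a library set apart beyond the 95% critical value of 0.829, and chance alone gives about 1 in 20. Groups of 3 were not tested. Prdm14 was 3.41 TPM in emMidgut replicate 3, and Dazl was 7.73 TPM in Epi replicate 1, each above the rest of its group. Kit was 3.37 TPM in Epi replicate 1, below the other 3 libraries. Tfap2c was 4.18 TPM in emHindgut replicate 1 and 3.25 TPM in exMidgut replicate 1, where the other 3 libraries were at 0. Ifitm3 was 3.05 TPM in exEndo 2 replicate 4, again with the other 3 at 0. The 2 emMidgut libraries with Dppa3 are not set apart by this ratio, because they form a pair.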

How the results depend on the processing

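Of 301 alternative values of the member counts per comparison and of the 68 member and group pairs at 1 TPM or more, 292 stayed within 1.5 times the main count. With all 44 libraries in a single fit, 1 member was called between exHindgut and exMidgut in place of 3, 2 were called between exColon and emColon in place of 0, and 2 in the interaction of origin and organ in place of 0; the 2 were Ifitm1 and Ifitm3, whose spread was then estimated mostly from other groups. Leaving out each library in turn gave 3 to 6 calls between exGut and YsEndo, with fewer genes tested where a YsEndo library was left out, and 0 to 1 calls in each of exColon against emColon and exSI against emSI. Of the single-gene values under all alternatives, 1460 kept their direction and their side of the threshold, 33 lost a call, 14 gained 1, and 64 changed sign, none of which was called in either fit; the cause was not tested. Ifitm1 was not called between emHindgut and emMidgut (limma adjusted p = 0.0904) or between exHindgut and exMidgut (0.0708) in the fit of all 44 libraries, and the cause was not tested.

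With the replicate number as a block, 4 members were called in exEndo 1 and 4 in exEndo 2 against Epi, 1 between exEndo 1 and exEndo 2, 2 between emHindgut and emMidgut, 3 between exHindgut and exMidgut, 6 between exGut and YsEndo and 0 elsewhere, the same counts as without it. Outside the exEndo pair, any pairing of the libraries by number was weak or not seen. Members at low levels were at 0 in some libraries of a group and at several TPM in others. The part of depth and of the small number of sorted cells in this was not tested.

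The sign changes were as follows, as log2 differences. Leaving out emMidgut libraries 1 and 3 gave 0.35 for Dnd1, 0.02 for Tfap2c and 0.33 for Ifitm3 between exGut and emGut. It gave 0.28 for Ifitm1 and 0.01 for Ifitm3 between exMidgut and emMidgut, -0.53 for Tfap2c and -0.50 for Ifitm1 in the interaction of origin and region, and -0.19 for Nanos3, 1.42 for Tfap2c and 0.30 for Ifitm3 between emHindgut and emMidgut. Tfap2c was 0.04 (quantile normalization) and 0.00 (median-ratio rescaling) between exHindgut and emHindgut, and 0.63 (pseudocount of 0.1) between emHindgut and emMidgut. Nanos3 was -0.03 between exSI and emSI by median-ratio rescaling and by FPKM, and Prdm1 -0.11, -0.13 and -0.04 in the interaction of origin and organ by quantile normalization, median-ratio rescaling and FPKM.

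Leaving out single libraries moved Dppa3 from -1.01 to 0.24 and Kit from -0.37 to 0.12 in exEndo 1, and Dazl from -0.04 to 0.84 in exEndo 2, against Epi. Between exGut and emGut the ranges were -0.10 to 0.43 for Prdm1, -0.19 to 0.05 for Kit and -0.28 to 0.06 for Ifitm3. Between exHindgut and emHindgut they were -0.63 to 0.07 for Nanos3 and -0.33 to 0.31 for Tfap2c, and in the interaction of origin and region -0.17 to 0.32 for Ifitm1. Between emHindgut and emMidgut they were -0.20 to 0.53 for Nanos3, -1.05 to 0.25 for Tfap2c and -0.11 to 0.21 for Kit, and between exHindgut and exMidgut -0.53 to 0.14 for Dnd1. At E13.5 they were -0.69 to 0.08 for Kit and -0.46 to 1.17 for Ifitm1 over both organs, -0.10 to 1.11 for Prdm1 in the colon, -0.68 to 0.78 for Nanos3 and -0.12 to 0.91 for Prdm1 in the small intestine, and -0.60 to 0.65 for Prdm1 in the interaction.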
